A study of Mus musculus with 3 samples.

Results

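The genes described here are the 5 nuclear receptors of estrogens, progesterone and corticosteroids, Esr1, Esr2, Pgr, Nr3c1 and Nr3c2, measured across the stromal classes of the aged mouse thymus. They were chosen by symbol, as 5 of the 32293 features counted, and the rule uses no measured value. The choice was made with earlier results of these data known. Steroid receptors are transcription factors that bind a hormone in the cytoplasm or nucleus and then act at DNA. Esr1 and Esr2 encode the estrogen receptors alpha and beta, Pgr the progesterone receptor, which is itself a known estrogen-induced gene in reproductive tissues, Nr3c1 the glucocorticoid receptor and Nr3c2 the mineralocorticoid receptor, which also binds glucocorticoids. Sex steroids and glucocorticoids are known to shrink the thymus, and both thymocytes and thymic stroma have been studied as their targets.

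The study profiled single cells of the thymic stroma depleted of CD45+ hematopoietic cells. The samples were from untreated C57BL/6 mice 20 months old. One library was from females carrying a Foxn1 lineage trace (Foxn1Lin), one from males with the same trace and one from wild type males, so each group held 1 library. The trace marks cells that have expressed Foxn1, the master regulator of thymic epithelium, through Foxn1-driven Cre and a tdTomato reporter that Cre switches on. Thymi were pooled for each library, and the protocol text names female mice for all 3 libraries although the labels of 2 libraries say male. The cell type field of the wild type library reads CD45-PECAM1+, whereas its title reads CD45-, and only 857 of its 5256 cells met the endothelial threshold below. The female sex and the wild type genotype were each carried by a single library, and the groups were therefore not compared. The comparison was between classes of cells within each library, with the libraries as 3 replicates and as a block, and the p-values measure the spread of a class difference between these libraries.

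Classes were set by unique molecular identifiers (UMIs, one count per captured RNA molecule) of marker genes. Thymic epithelial cells (TECs) had at least 2 UMIs of Epcam, endothelial cells (ECs) at least 2 of Pecam1, fibroblasts (FBs) at least 2 of Pdgfra, mural cells at least 5 of Rgs5 and Acta2 together, and mesothelial cells at least 2 of Upk3b. Of 17168 cells kept, 1757 were TECs, 3554 ECs, 4423 FBs, 1227 mural and 374 mesothelial cells, 1213 met more than 1 threshold and were dropped, and 4620 met none. Mesothelial cells were 338 in the Foxn1Lin female, 36 in the wild type and 0 in the Foxn1Lin male library, so every mesothelial value rests on at most 2 libraries. The classes bore their labels by the marker lists, whose summed level per library was taken gene by gene: 7 of 8 TEC markers, 8 of 8 FB, 9 of 9 EC, 7 of 7 mural and 6 of 6 mesothelial markers were highest in their own class. These counts and sums include the genes that set the classes (Epcam, Pdgfra, Pecam1, Rgs5, Acta2 and Upk3b). Those genes were bound to be highest there and are no support for the labels. Mesothelial cells also carried the FB list, at 9535 and 10305 CPM in the Foxn1Lin female and wild type libraries, against 4766 and 4607 CPM of their own list and 15086 and 15852 CPM of the FB list in FBs. They carried the TEC list at 2161 and 1083 CPM, and the part of either in the mesothelial contrasts was not tested. Median UMIs per cell were 10965 to 16229 in TECs, 3856 to 7380 in ECs, 7392 to 9388 in FBs, 4052 to 5974 in mural and 9376 to 11147 in mesothelial cells, and total UMIs per library were 33386621 to 61258534. Libraries shared 3 to 14 barcodes pairwise among 3583 to 8616 called.

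The 5 genes lie on separate chromosomes. In GRCm38 (GENCODE vM21), Esr1 (ENSMUSG00000019768) spans chr10:4611593-5005614 on the plus strand, Esr2 (ENSMUSG00000021055) chr12:76120419-76177259 on the minus strand, Pgr (ENSMUSG00000031870) chr9:8899833-8968611 on the plus strand and Nr3c2 (ENSMUSG00000031618) chr8:76899442-77245012 on the plus strand. No other counted gene overlapped a member on its own strand, and on the opposite strand Gm10649 overlapped Nr3c2. Reads came from the 3′ ends of RNAs, so levels were compared between classes for a gene and never between genes.

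The stretch upstream of a transcript start is shown for Pgr, the member with the steepest class pattern, for both estrogen receptors and for Nr3c2, so that hormone response half-sites can be looked for. Each is 200 bases long, from base 250 to base 51 before a RefSeq transcript start (GRCm38.p6), read 5′ to 3′ on the gene's strand, and capitals mark GGTCA or its reverse complement TGACC, the half-site of estrogen receptors and of several other nuclear receptors. Nr3c1 had no matched entry. For Esr1 and Nr3c2 the start used lies inside the gene span given above, so these windows are upstream of an internal start and not of the gene's first base. The windows were chr9:8899583-8899782 (plus strand) for Pgr, chr10:4709908-4710107 (plus) for Esr1, chr12:76177310-76177509 (minus) for Esr2 and chr8:76902080-76902279 (plus) for Nr3c2.
Pgr: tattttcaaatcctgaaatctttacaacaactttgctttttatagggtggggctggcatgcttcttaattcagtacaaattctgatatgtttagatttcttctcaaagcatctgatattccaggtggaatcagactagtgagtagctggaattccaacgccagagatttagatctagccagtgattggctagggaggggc
Esr1: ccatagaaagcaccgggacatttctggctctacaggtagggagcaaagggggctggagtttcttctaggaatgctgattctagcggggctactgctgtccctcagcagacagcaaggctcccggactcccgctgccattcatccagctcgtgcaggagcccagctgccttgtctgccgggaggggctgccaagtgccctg
Esr2: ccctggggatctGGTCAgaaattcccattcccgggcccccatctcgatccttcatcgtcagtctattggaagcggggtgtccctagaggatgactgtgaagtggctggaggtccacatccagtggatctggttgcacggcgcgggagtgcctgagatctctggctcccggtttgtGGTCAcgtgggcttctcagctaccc
Nr3c2: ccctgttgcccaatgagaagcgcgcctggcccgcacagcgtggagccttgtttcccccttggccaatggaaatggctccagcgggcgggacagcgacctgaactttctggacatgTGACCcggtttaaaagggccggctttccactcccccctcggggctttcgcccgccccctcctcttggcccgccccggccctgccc
The Esr2 window held 2 copies of GGTCA or TGACC and the Nr3c2 window 1, while the Pgr and Esr1 windows held 0. On either strand this motif was in 29.4% of 32851 windows of the same length over all RefSeq starts. The half-site of the corticosteroid and progesterone receptors, AGAACA, was in 13.2% of all windows on either strand and in none of these 4. A match is a match of letters only, and its absence says nothing beyond this window.

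Levels are given as CPM, the UMIs of a gene per 1000000 UMIs summed over a class in 1 library. Of the 5 members 4 passed the low-count filter of the model and Esr2 did not. Pgr passed with at most 15 UMIs in any class of a library outside TECs. The summed counts of 17595 genes in 14 class by library columns were fitted with edgeR's quasi-likelihood model with library as a block, and adjusted p is the Benjamini-Hochberg value over all those genes in a contrast, called under 0.05. TECs, ECs and FBs each differ from the others in a large share of genes, and the shares are given beside the counts of members. Scaling matters for TECs: without TMM scaling the median log2 fold change of all genes rose by 0.37 for TECs against ECs, 0.33 against FBs, 0.31 against mural and 0.27 against mesothelial cells, so that 72.5% rather than 55.8% of the genes called between TECs and ECs were higher in TECs (71.2% rather than 54.8% for FBs, 70.1% rather than 53.7% for mural and 70.5% rather than 56.3% for mesothelial cells). No called contrast of a member changed sign without TMM. Levels of cell-free RNA were read from droplets below the range of called cells. These droplets held 142 to 565, 23 to 89 and 29 to 112 UMIs in the Foxn1Lin female, Foxn1Lin male and wild type libraries. The class medians were 3856 to 16229 UMIs per cell. The CPM of these droplets is thus the makeup of cell-free RNA and not the amount in a cell, which was not measured. A lower CPM in a class does not by itself make its level background.

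**Figure D1:**
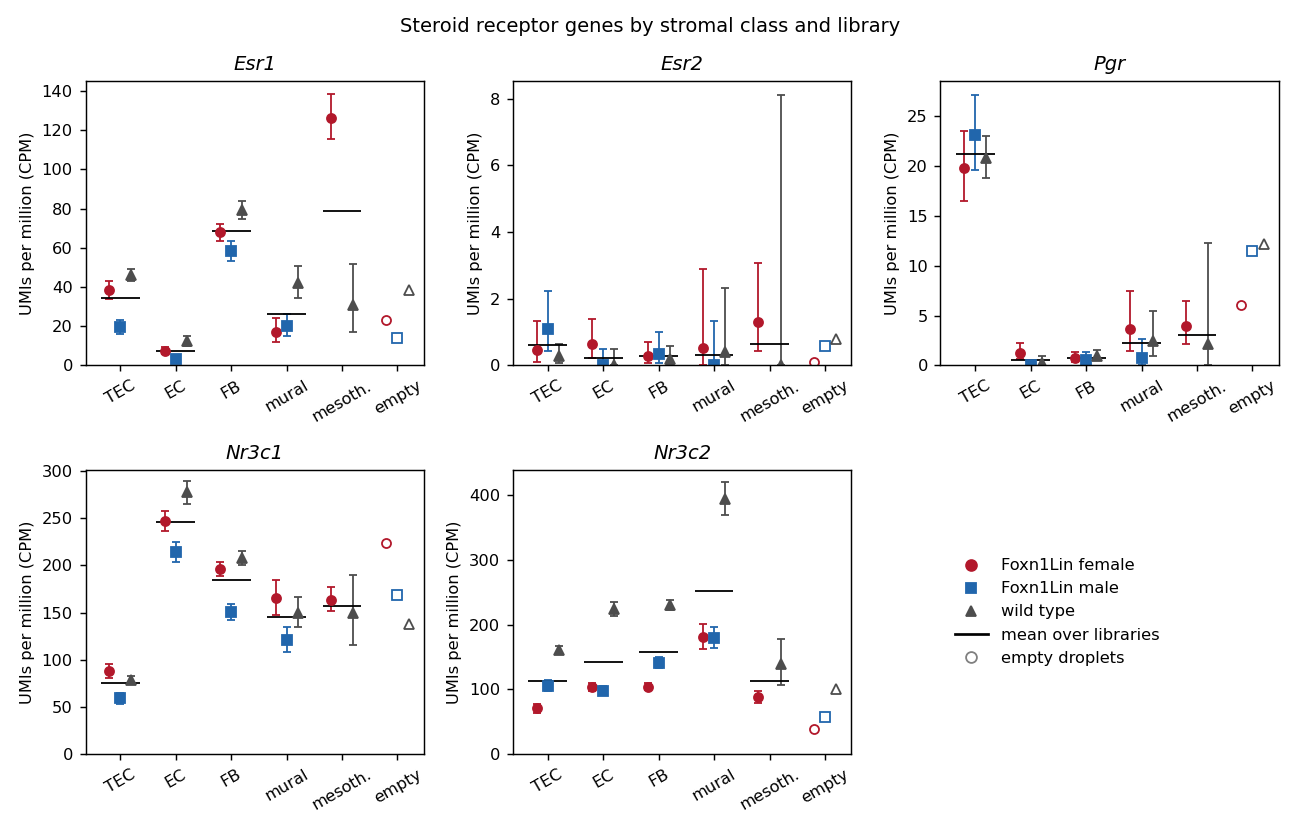
CPM of the 5 receptors (vertical axes, 1 panel per gene with its own scale) in each class and, as open symbols, in empty droplets, with 1 point per library, its 95% Poisson interval for counting error and a bar for the mean over libraries. Pgr was at 19.8 to 23.2 CPM in TECs and at most 3.93 in the other classes, Nr3c1 was lowest in TECs in every library, and Esr1 was lowest in ECs.

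Esr1 was higher in FBs than in TECs and mural cells and lowest in ECs, while its place in mesothelial cells depended on the library. FBs had 67.8, 58.2 and 79.3 CPM in the Foxn1Lin female, Foxn1Lin male and wild type libraries (68.4 ± 10.6, SD, n = 3), TECs 38.3, 19.6 and 46.0 (34.6 ± 13.6), mural cells 17.1, 20.0 and 41.9 (26.4 ± 13.6) and ECs 7.37, 3.15 and 12.3 (7.62 ± 4.59). The ranges of FBs and ECs did not overlap with each other or with any of these classes, whereas those of TECs and mural cells overlapped. FBs exceeded ECs by a log2 fold change of 3.24 (EC against FB, -3.24, SE 0.50, adjusted p = 0.000385), TECs exceeded ECs by 1.84 (SE 0.49, adjusted p = 0.00755) and ECs were below mural cells (-1.82, SE 0.52, adjusted p = 0.0168). TECs were below FBs (-1.39, SE 0.45, adjusted p = 0.022), and FBs were above mural cells (1.41, SE 0.48, adjusted p = 0.0473). The contrast of TECs with mural cells was not called (0.02, SE 0.48, adjusted p = 0.979). The Foxn1Lin male library had the lowest Esr1 of the 3 in TECs, ECs and FBs. Without it 4 of these calls were lost, with folds of similar size: 1.77 for TEC against EC (adjusted p = 0.0531), -1.16 for TEC against FB (adjusted p = 0.153), -1.58 for EC against mural (adjusted p = 0.13) and 1.36 for FB against mural (adjusted p = 0.192). EC against FB stayed called. Without the library block TEC against FB (-1.32, adjusted p = 0.0601) and FB against mural (1.38, adjusted p = 0.0996) were also lost, and the latter was called in 11 of 15 alternatives. Fewer RNA molecules per cell and fewer cells with the RNA cannot be told apart in such sums.

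Mesothelial Esr1 depended on the library. It was 126 CPM (482 UMIs, 338 cells) in the Foxn1Lin female and 30.8 CPM (14 UMIs, 36 cells, 95% interval 16.8 to 51.7) in the wild type library. It was thus above every other class of the first library, and in the second below FBs, TECs and mural cells and above ECs. The fit called it above TECs (TEC against mesothelial, -1.49, SE 0.53, adjusted p = 0.0474) and above ECs (-3.34, SE 0.57, adjusted p = 0.000967), and did not call it against FBs (-0.10, SE 0.54, adjusted p = 0.944). The call above TECs was kept in 5 of 14 alternative settings, and was lost without TMM (-1.20, adjusted p = 0.0742), without the library block (-1.58, adjusted p = 0.0614) and with DESeq2 (-1.26, adjusted p = 0.0953). The contrast with mural cells was not called (mural against mesothelial, -1.52, SE 0.57, adjusted p = 0.0733), and without the wild type library it was (-2.56, adjusted p = 0.0176). Without the Foxn1Lin female library, the contrast with TECs turned to 0.51 (adjusted p = 0.583) and that with ECs was -1.33 (adjusted p = 0.188). Without the wild type library they were -2.37 (adjusted p = 0.0124) and -4.44 (adjusted p = 0.00342).

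Esr2 was near or below detection in every class. TECs held 3, 7 and 5 UMIs in the Foxn1Lin female, Foxn1Lin male and wild type libraries (0.46, 1.09 and 0.27 CPM), and no other class exceeded 1.31 CPM. ECs had 6 UMIs in the Foxn1Lin female library and 0 in the other two, where 3 UMIs would be 0.394 and 0.402 CPM. Cell-free RNA gave 0.11, 0.59 and 0.79 CPM, so Esr2 in TECs exceeded it in 2 libraries and fell below it in the wild type. Esr2 was not tested, and no order of the classes was detectable at this depth.

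Pgr was a TEC-biased receptor in these libraries. TECs had 19.8, 23.2 and 20.8 CPM in the Foxn1Lin female, Foxn1Lin male and wild type libraries (21.3 ± 1.71, SD, n = 3) from 129, 149 and 379 UMIs, the smallest relative spread of any member in any class measured in 3 libraries. ECs had 1.28, 0 and 0.27 CPM, FBs 0.77, 0.58 and 0.92, and mural cells 3.63, 0.73 and 2.49. Mesothelial cells had 3.93 and 2.20 CPM in the libraries that held them. Every TEC value thus lay above every value of the other classes. Pgr held few UMIs in the other classes, so the sizes of the TEC contrasts are a description, given with no test: 5.03 against ECs (SE 0.60), 4.52 against FBs (SE 0.55), 3.06 against mural (SE 0.59) and 2.63 against mesothelial cells (SE 0.73) on the log2 scale. Cell-free RNA contained 6.09, 11.5 and 12.1 CPM of Pgr, which is above every value in the other 4 classes and below every value in TECs. Without the Foxn1Lin female library, which held 12 of the 14 EC UMIs of Pgr, the contrast with ECs was 6.95, and without the Foxn1Lin male library it was 4.37 and that with mural cells 2.46. The part of Pgr in those 4 classes that came from cell-free RNA was not tested, and its level there is read with that limit. That covers the call of ECs below mesothelial cells (-2.40, SE 0.84, adjusted p = 0.0458), which was lost without the Foxn1Lin female (adjusted p = 0.364) or the wild type library (adjusted p = 0.205). Without the same libraries the contrast of TECs with mesothelial cells was 3.47 and 2.46. Without the Foxn1Lin female library, edgeR called ECs below mural cells (-3.37, adjusted p = 0.036). With all 3 libraries edgeR did not call this contrast (-1.97, SE 0.78, adjusted p = 0.068) and DESeq2 did (-2.17, adjusted p = 0.0241). Across subsets, 0 UMIs of Pgr were found in FBs with Pi16 and in ECs with Gja5 in any library.

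Nr3c1 (ENSMUSG00000024431, chr18:39410545-39519421 on the minus strand in GRCm38) was lowest in TECs and highest in ECs. TECs had 87.9, 59.0 and 78.2 CPM in the Foxn1Lin female, Foxn1Lin male and wild type libraries (75.1 ± 14.7, SD, n = 3) and ECs 247, 214 and 277 (246 ± 31.6). FBs had 196, 151 and 208 CPM (185 ± 30.3), and mural cells 165, 121 and 150 (145 ± 22.2). Mesothelial cells had 164 and 150 CPM. No TEC library reached any library of another class, while FB and mural ranges overlapped. TECs were below ECs (-2.10, SE 0.14, adjusted p = 1.11e-06), FBs (-1.64, SE 0.14, adjusted p = 4.6e-06), mural cells (-1.27, SE 0.14, adjusted p = 3.35e-05) and mesothelial cells (-1.19, SE 0.16, adjusted p = 0.000237), and these 4 calls held in every alternative fit. ECs were above mural (0.83, SE 0.14, adjusted p = 0.000717) and mesothelial cells (0.91, SE 0.16, adjusted p = 0.00142) and above FBs by 0.47 (SE 0.14, adjusted p = 0.018). FB against mural (0.36, adjusted p = 0.0723) was not called with all 3 libraries, and was called in 5 of 15 alternatives, DESeq2 among them (0.29, adjusted p = 0.049987), with adjusted p = 0.028 to 0.268 over all 15. FB against mesothelial (0.44, adjusted p = 0.0771) and mural against mesothelial (0.08, adjusted p = 0.777) were not called. The call of ECs above FBs was lost without the Foxn1Lin male (0.36, adjusted p = 0.234) or the wild type library (0.37, adjusted p = 0.194) and without the library block (0.46, adjusted p = 0.125), and that of ECs above mesothelial cells without the wild type library (0.62, adjusted p = 0.132). Cell-free RNA held 224, 168 and 138 CPM of Nr3c1. The EC level was above this in all 3 libraries and the TEC level below it in all 3. FBs and mural cells were below it in both Foxn1Lin libraries and above it in the wild type, and mesothelial cells likewise in the 2 libraries that held them. The part of cell-free RNA in the TEC level was not tested. In FBs Nr3c1 stood above cell-free RNA in the wild type library beyond counting error (95% intervals 201 to 215 against 126 to 150 CPM), whereas the wild type intervals of mural (135 to 166) and mesothelial cells (116 to 190) overlapped that of cell-free RNA. The contrasts of TECs are therefore differences in CPM in which the TEC level is at most that of cell-free RNA.

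Nr3c2 was highest in mural cells. These had 181, 180 and 395 CPM in the Foxn1Lin female, Foxn1Lin male and wild type libraries (252 ± 124, SD, n = 3), against 104, 142 and 230 in FBs (159 ± 64.6), 103, 97.9 and 224 in ECs (142 ± 71.2) and 70.7, 106 and 161 in TECs (112 ± 45.4). Mesothelial cells had 88.4 and 139 CPM. The wild type library was the highest in every class. The mural range lay above those of TECs and mesothelial cells, and the other ranges overlapped. Mural cells were above TECs (TEC against mural, -1.45, SE 0.19, adjusted p = 0.00013), ECs (-0.77, SE 0.19, adjusted p = 0.00811), FBs (-0.63, SE 0.19, adjusted p = 0.03) and mesothelial cells (1.23, SE 0.23, adjusted p = 0.00242), and by CPM they were the highest class in each library. TECs were below FBs (-0.82, SE 0.19, adjusted p = 0.0035) in all 3 libraries. They were called below ECs (-0.68, SE 0.19, adjusted p = 0.0103) although by CPM they were higher in 1 of 3 libraries, and this call was lost without TMM (-0.30, adjusted p = 0.139), without the Foxn1Lin female (-0.48, adjusted p = 0.0602) and without the wild type library (-0.60, adjusted p = 0.058). FB against mural was lost without the Foxn1Lin male (-0.74, adjusted p = 0.0709) or the wild type library (-0.48, adjusted p = 0.187), and mural against mesothelial without the wild type library (0.79, adjusted p = 0.115). Without the library block, of the 6 calls TECs against mural cells was the 1 that was kept (-1.48, adjusted p = 0.0159). ECs and FBs were not told apart (-0.15, SE 0.19, adjusted p = 0.574), nor were TECs and mesothelial cells (-0.22, SE 0.22, adjusted p = 0.469). Cell-free RNA held 38.5, 56.8 and 101 CPM of Nr3c2, below every class in its own library. The antisense gene Gm10649 lies within the span of Nr3c2, and the strand setting of the counting was not given in the sources used here.

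**Figure D2:**
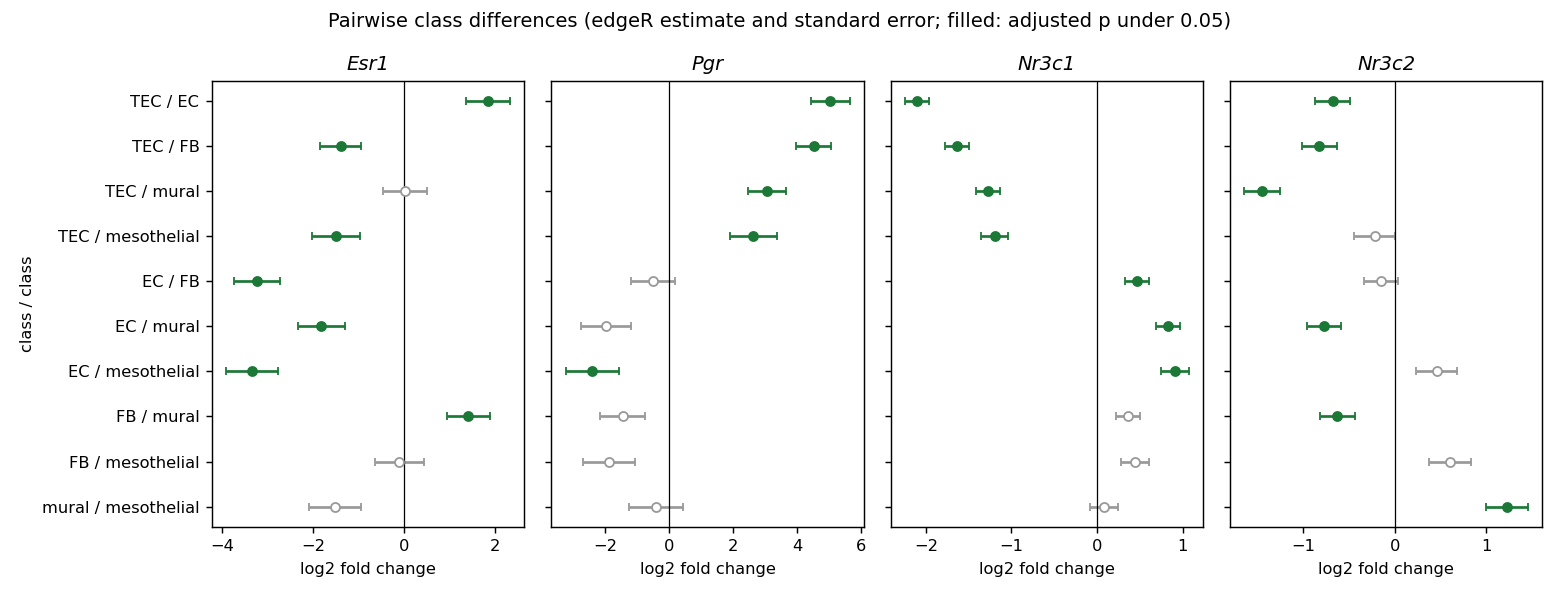
Log2 fold changes between classes (horizontal axis) for the 4 tested receptors, as edgeR estimates with standard errors, filled where the adjusted p was under 0.05 and the first class named being the higher one at positive values. Nr3c1 lies left of zero in all 4 contrasts of TECs with another class, and Pgr lies right of zero in the same 4. For Pgr those 4 are a description, and their fill is not read as a test.

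Read against all genes, the counts of members called follow the large differences between classes. All 4 tested members were called for TECs against ECs, where 56.3% of all genes were called, and all 4 for TECs against FBs, where 55% were. For TECs against mural cells 3 of 4 were called beside 48.7% of genes, and for TECs against mesothelial cells 3 of 4 beside 37.8%. ECs differed from FBs in 2 of 4 (39.6% of genes), from mural cells in 3 of 4 (37.2%) and from mesothelial cells in 3 of 4 (34.5%). FBs differed from mural cells in 2 of 4 (28.4%), and mural from mesothelial cells in 1 of 4 (26.8%). FBs against mesothelial cells gave 0 of 4 with edgeR (21.5%), with 3 at an unadjusted p under 0.05 and 0 called by DESeq2. Pgr is counted in each of the 4 TEC contrasts, which are given for it as a description, so those counts are no support for it. With only 4 members tested, these shares are not set against the background by a test.

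The share of cells with a UMI was compared at a matched depth, with each cell thinned to 2000 UMIs and shallower cells left out (13 to 22 TECs, 25 to 297 ECs, 3 to 32 FBs, 9 to 34 mural and 0 to 11 mesothelial cells per library). Pgr was seen in 3.99%, 5.62% and 3.20% of TECs of the Foxn1Lin female, Foxn1Lin male and wild type libraries (95% Clopper-Pearson intervals 2.38% to 6.23%, 3.60% to 8.32% and 2.12% to 4.62%). In ECs the shares were 0.19%, 0% and 0%, and 0 of 793 and 0 of 816 cells allow shares of up to 0.378% and 0.368%. The TEC intervals lay above those of ECs and FBs in every library. Mesothelial cells had Pgr in 2.00% of cells (SD 1.10%, n = 2 libraries) and mural cells in 0.34% (SD 0.15%, n = 3), and no separation from mesothelial cells is claimed. Without thinning, 14.9%, 16.4% and 21.9% of TECs and at most 0.59% of ECs had a Pgr UMI, at the greater depth of TECs.

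Esr1 was seen in 11.7%, 9.29% and 13.2% of thinned FBs, 6.43%, 5.38% and 7.46% of TECs, 3.06%, 2.75% and 6.71% of mural cells and 1.26%, 0.63% and 2.33% of ECs. The share in mesothelial cells was 21.7% in the Foxn1Lin female and 5.56% in the wild type library. In each library the classes came in the order of their CPM, except that TECs and mural cells changed places in the Foxn1Lin male. Esr1 in ECs was also below its level in cell-free RNA (23.3, 13.9 and 38.6 CPM) in each library, and the part of cell-free RNA in the EC value was not tested. Mural Esr1 was below it in the Foxn1Lin female library (17.1 CPM) and above it in the other two, and mesothelial Esr1 was below it in the wild type (30.8 CPM).

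Nr3c1 was seen in 38.2%, 32.9% and 40.6% of thinned ECs and in 14.6%, 11.5% and 13.0% of TECs. Unthinned, the shares were 58.5%, 69.1% and 72.7% of ECs and 52.6%, 44.1% and 55.5% of TECs, a narrower gap at the greater depth of TECs. Nr3c2 was seen in 25.5%, 31.2% and 44.9% of mural cells and in 13.5%, 15.2% and 24.6% of TECs. Esr2 was in at most 0.61% of the thinned cells of any class. Intervals and limits cover counting error only.

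**Figure D3:**
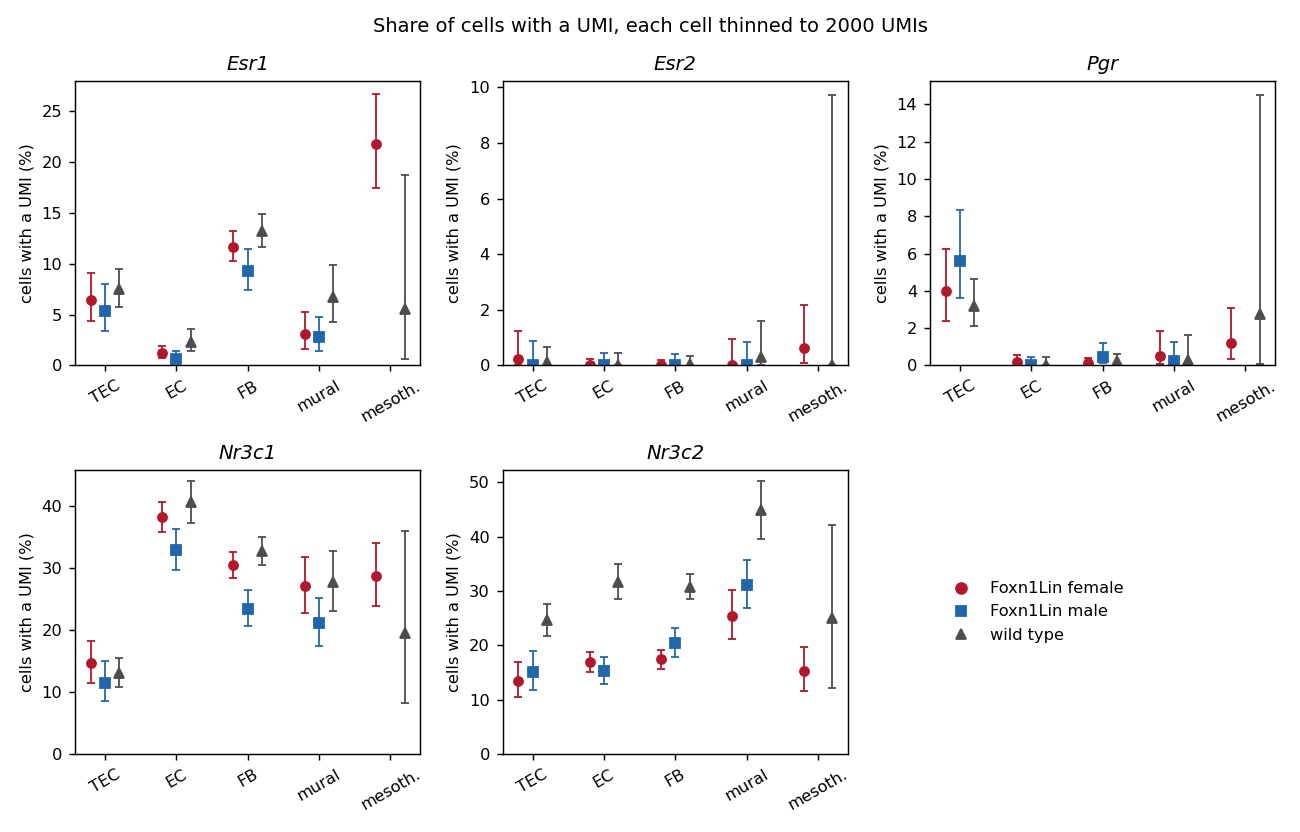
Share of cells with at least 1 UMI of each receptor (vertical axes, percent, 1 panel per gene with its own scale) after thinning every cell to 2000 UMIs, with 95% Clopper-Pearson intervals, 1 point per library and class. Nr3c1 was in 32.9% to 40.6% of ECs and 11.5% to 14.6% of TECs, and the intervals of the 36 wild type mesothelial cells are wide.

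Within TECs, cells were split by markers of cortical (Psmb11, at least 2 UMIs), Aire+ medullary (Aire, at least 2) and Ccl21a+ medullary epithelium (Ccl21a, at least 10), and the rest were kept together. These are ranges of a marker rather than cell types. The subsets held 11 to 64, 63 to 155, 44 to 95 and 223 to 530 cells per library. The subset model covered 15637 genes and 41 columns. Barcodes with Ptprc, a hematopoietic marker, were 20 of 64, 0 of 11 and 11 of 64 Psmb11+ TECs in the Foxn1Lin female, Foxn1Lin male and wild type libraries. Among Aire+ TECs they were 13 of 115, 3 of 63 and 4 of 155. The subset model was not run without them, and their part in the subset contrasts was not tested. Aire+ TECs had the lowest Nr3c1 and Nr3c2 of the 4 subsets in each library. Their Nr3c1 was 57.7, 38.5 and 49.6 CPM in the Foxn1Lin female, Foxn1Lin male and wild type libraries, against 130, 77.5 and 120 in Psmb11+ TECs, 69.8, 79.3 and 104 in Ccl21a+ TECs and 79.2, 59.1 and 71.1 in the rest. Nr3c2 was 32.4, 43.2 and 43.8 CPM in Aire+ TECs, against 77.2, 152 and 148 in Psmb11+, 59.2, 99.3 and 202 in Ccl21a+ and 94.1, 129 and 202 in the remaining TECs. The Aire+ values of Nr3c2 lay below all values of the other subsets. They also lay below cell-free RNA in every library, and those of the other 3 subsets above it. Nr3c1 was below cell-free RNA in all 4 subsets of every library. Psmb11+ exceeded Aire+ TECs for Nr3c1 (1.10, SE 0.20, adjusted p = 3.2e-05) and Nr3c2 (1.52, SE 0.28, adjusted p = 4.04e-05), and Aire+ were below Ccl21a+ TECs for Nr3c2 (-1.43, SE 0.28, adjusted p = 0.000102) and below the rest for Nr3c2 (-1.71, SE 0.27, adjusted p = 6.86e-06). Aire+ were also below Ccl21a+ TECs for Nr3c1 (-0.76, SE 0.20, adjusted p = 0.00279), a call lost without the Foxn1Lin male (-0.65, adjusted p = 0.113) or the wild type library (adjusted p = 0.0598). Psmb11+ TECs were above the rest for Nr3c1 (0.64, SE 0.19, adjusted p = 0.0155), which was lost when any 1 library was left out (0.59 to 0.67, adjusted p = 0.0663 to 0.181). The contrast of Aire+ TECs with the rest was called for Nr3c1 without the Foxn1Lin female library (-0.50, adjusted p = 0.0406), without TMM (-0.52, adjusted p = 0.0188) and by DESeq2 (-0.42, adjusted p = 0.0263), and not by edgeR with all 3 and TMM (-0.46, SE 0.19, adjusted p = 0.0572).

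Pgr was highest in Psmb11+ TECs, with 30.9, 77.5 and 45.5 CPM in the Foxn1Lin female, Foxn1Lin male and wild type libraries from 50, 29 and 108 UMIs, the second from 11 cells. It was 27.5, 15.5 and 25.3 in Ccl21a+, 15.0, 3.14 and 9.92 in Aire+ and 12.7, 28.3 and 17.2 CPM in the remaining TECs. Psmb11+ exceeded Aire+ TECs (2.32, SE 0.57, adjusted p = 0.00152), with no overlap between them, and the call held without each library (1.62 without the Foxn1Lin male and 2.93 without the Foxn1Lin female). In the Foxn1Lin male and wild type libraries the Aire+ level was below that of cell-free RNA. The other Pgr contrasts among TEC subsets were not called with all 3 libraries. Without the Foxn1Lin female library, Aire+ TECs were called below the rest (-1.61, adjusted p = 0.0389). Esr1 was uneven in Ccl21a+ TECs, at 93.0 and 140 CPM in the Foxn1Lin female and wild type libraries and 10.9 in the Foxn1Lin male, where it rested on 12 UMIs. Aire+ TECs had 28.2, 11.0 and 22.3 CPM and were called below Ccl21a+ TECs (-1.77, SE 0.52, adjusted p = 0.00729), although the Foxn1Lin male values were close and both below cell-free RNA, as was the wild type Aire+ value, and the call was lost without the wild type library (-1.19, adjusted p = 0.233). Without the Foxn1Lin male library, Psmb11+ TECs were also called below Ccl21a+ TECs for Esr1 (-1.84, adjusted p = 0.0464). Of the Esr2 UMIs, 2 and 6 in the Foxn1Lin female and male libraries were in Aire+ TECs (1.20 and 4.71 CPM), with 0 in the wild type.

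**Figure D4:**
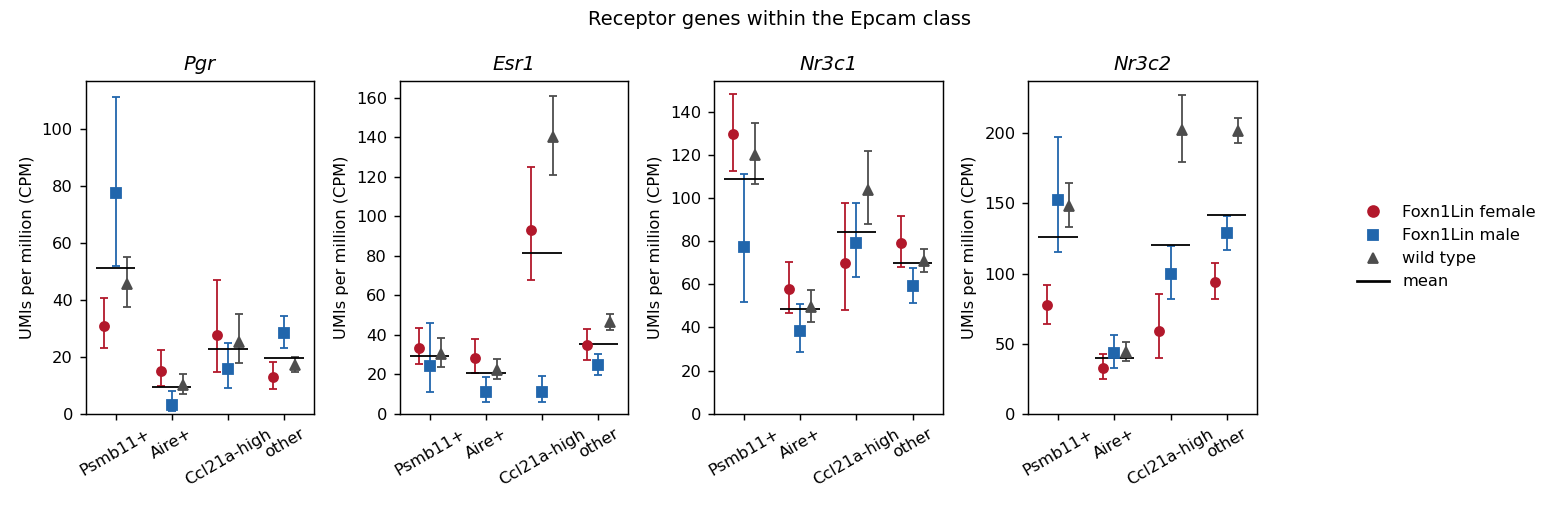
CPM of Pgr, Esr1, Nr3c1 and Nr3c2 (vertical axes) in the 4 TEC subsets, with 1 point per library, its 95% Poisson interval and a bar for the mean. Aire+ TECs lie lowest for Nr3c2, at 32.4 to 43.8 CPM, and Psmb11+ TECs highest for Pgr, at 30.9 to 77.5 CPM.

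Among TEC subsets, 3 of 4 members were called between Psmb11+ and Aire+ (46.5% of genes) and 3 of 4 between Aire+ and Ccl21a+ (40.7%). One was called between Psmb11+ and the rest (19.4%) and 1 between Aire+ and the rest (39.2%). None was called between Psmb11+ and Ccl21a+ (12% of genes) or between Ccl21a+ and the rest (7.33%). In FBs, 1 was called for Pi16+ against Ptn+ (14.9% of genes) and 1 for Pi16+ against the rest (8.18%), and none for Pi16+ against Smoc2+ (3.94%), Smoc2+ against Ptn+ (4.69%), Smoc2+ against the rest (0.761%) or Ptn+ against the rest (1.11%). In ECs, 1 was called for Selp+ against the rest (10.1% of genes), and none for Gja5+ against Selp+ (11.2%) or against the rest (3.89%). Myh11+ mural cells against the rest also gave none (12.8%). Over these 9 contrasts with none called by edgeR, 6 of 36 member tests had an unadjusted p under 0.05 and DESeq2 called 1, Nr3c1 in Gja5+ against Selp+ ECs.

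Scaling also moved 6 of the 16 subset contrasts by more than 10 percentage points. Without TMM, the share of called genes that were higher in the first subset went from 24.7% to 59.3% for Gja5+ against Selp+ ECs, from 26.5% to 54.2% for Gja5+ ECs against the rest, from 56.3% to 35.7% for Selp+ ECs against the rest and from 60.7% to 29.4% for Myh11+ mural cells against the rest. It went from 35.5% to 47.6% for Pi16+ against Ptn+ FBs and from 29.9% to 18.7% for Ptn+ FBs against the rest. Nr3c1 in Gja5+ against Selp+ ECs, not called with TMM (0.23, SE 0.19, adjusted p = 0.551), was called without it (0.58, adjusted p = 0.0297).

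In FBs, Nr3c2 was lowest in Pi16+ cells, a marker of adventitial fibroblasts. These had 82.7, 83.1 and 113 CPM in the Foxn1Lin female, Foxn1Lin male and wild type libraries. Smoc2+ FBs had 105, 121 and 187 CPM, Ptn+ FBs 137, 148 and 252, and the remaining FBs 153, 201 and 287. The 4 subsets kept this order in each library. Pi16+ FBs were below Ptn+ FBs (-1.01, SE 0.27, adjusted p = 0.00804) and below the rest (-1.19, SE 0.27, adjusted p = 0.00391). Both calls were lost without the Foxn1Lin male library, which had 23 Pi16+ cells (-0.998 and -1.09, adjusted p = 0.0887 and 0.092), without the wild type library (-0.74 and -0.997, adjusted p = 0.142 and 0.077) and without the library block (-1.10 and -1.27, adjusted p = 0.164 and 0.145). In ECs, Nr3c1 was lowest in Selp+ cells, a marker of venous endothelium, at 166, 163 and 176 CPM, against 225, 218 and 313 in Gja5+ ECs, a marker of arterial endothelium, and 261, 259 and 357 in the remaining ECs. Selp+ ECs were below cell-free RNA in both Foxn1Lin libraries and above it in the wild type. They were below the rest (-0.64, SE 0.18, adjusted p = 0.0193), a call lost without the Foxn1Lin male (-0.72, adjusted p = 0.22) or the wild type library (-0.52, adjusted p = 0.362) and without the library block (adjusted p = 0.129). In mural cells split by Myh11, a smooth muscle myosin, Nr3c2 was 177, 173 and 369 CPM in Myh11+ cells and 190, 209 and 512 CPM in the rest.

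The 4620 cells that met no threshold also carried the receptors. They had 65.5, 51.2 and 71.9 CPM of Esr1, below FBs and above TECs of the same libraries, and 10.4, 3.87 and 15.5 CPM of Pgr, between the TEC level and that of the other classes. Cell-free RNA held 6.09, 11.5 and 12.1 CPM of Pgr, so the Foxn1Lin male value lay below it. No class was given to these cells. Cells dropped for meeting more than 1 threshold had 9.82, 12.4 and 13.9 CPM of Pgr. Markers of other cell types were also counted in TECs. Their hematopoietic list summed to 448 to 815 CPM, against at most 207 in the other classes, and their parathyroid list to 2752 to 5179 CPM. Barcodes with Gcm2 or at least 20 UMIs of Pth numbered 7, 4 and 2 among TECs of the Foxn1Lin female, Foxn1Lin male and wild type libraries. Of that list, Pth made up 2060 to 4148 CPM. Without the parathyroid barcodes, 26 rather than 25 of the 40 member contrasts between classes were called, and without barcodes with Ptprc, 23 were. Their part in the TEC values was otherwise not tested.

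Other genes followed the class pattern of each receptor. Over the 14 class by library columns, among 9931 genes with a mean of at least 10 CPM, the Pearson correlation of log2(CPM + 1) was taken with each member. The columns share libraries and their depth, so the values are descriptions. For Esr1 the closest were Fech (r = 0.98), Trerf1 (0.92), Dlg5 and Pigs (0.91) and Nfix (0.90), with 6 genes over 0.9. For Pgr they were Smim22 (0.98), Dsp, Ptprz1, Ripk4 and Cdx1 (0.97 each), with 147 over 0.9. Dsp encodes the desmosome protein desmoplakin. For Nr3c1 they were Acvrl1, which encodes an endothelial BMP receptor, and Sptbn1 (0.97 each), and Ssh2, Plekho2 and Coro1c (0.96 each), with 32 over 0.9. For Nr3c2 they were Ppp3cb (0.94), Ahdc1 (0.89), Strn3 and Braf (0.88) and Wdfy1 (0.87), with 1 over 0.9.

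The genes around the receptors were read from lists of enzymes, chaperones, coregulators and hormone-induced genes. Cell-free levels were read for the 5 receptors and not for these genes, so their low CPM values are given without one. Of 30 steroid enzymes 21 were tested, and TECs were higher in 10 and lower in 4 against ECs, and higher in 4 and lower in 11 against FBs (median log2 fold change 0.97 and -0.88). Against mural and mesothelial cells, 4 were higher in TECs and 6 and 7 lower (medians 0.06 and 0.28). Without TMM, 13, 5, 5 and 7 were higher in TECs and 3, 8, 5 and 6 lower against ECs, FBs, mural and mesothelial cells, so the balance with mural and mesothelial cells did not hold. Over all genes the medians for TECs against ECs, FBs, mural and mesothelial cells were 0.12, 0.09, 0.13 and 0.19, and 56.3%, 55%, 48.7% and 37.8% were called, which is the background for the counts of every list here. Fkbp5, Sgk1, Nrip1 and Hsd11b2 each stand in 2 lists. Hsd11b1 encodes the enzyme that regenerates active glucocorticoid from its inert 11-keto form and is the clearest of them. FBs had 279 to 1090 CPM of Hsd11b1 over the 3 libraries, mural cells 21.8 to 79.1, TECs 7.4 to 11.2, ECs 4.3 to 19.9 and mesothelial cells 6.6 to 9.2. FBs were above TECs (TEC against FB, -6.51, SE 0.75, adjusted p = 3.5e-05), ECs (-6.03, SE 0.75, adjusted p = 8.3e-05), mural (3.86, SE 0.66, adjusted p = 0.00136) and mesothelial cells (6.26, SE 0.99, adjusted p = 0.00108). Hsd11b2, which inactivates glucocorticoid and so guards the mineralocorticoid receptor in kidney, was at most 3.9 CPM in any class and library. Cyp1b1, an estrogen hydroxylase, was also an FB gene at 233 to 247 CPM (TEC against FB, -3.95, SE 0.46, adjusted p = 4.14e-05). Sult2b1, a steroid sulfotransferase, and Cyp11a1, which starts steroid synthesis from cholesterol, were at 9.3 to 15.4 and 3.4 to 5.6 CPM in TECs.

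Of 16 glucocorticoid-induced genes, all tested, TECs were higher in 6 and lower in 8 against ECs, 3 and 7 against FBs, 2 and 9 against mural and 2 and 6 against mesothelial cells, beside 56.3%, 55%, 48.7% and 37.8% of all genes called in these contrasts (medians -0.46, -0.52, -1.12 and -0.12). Without TMM, 6 were higher and 4 lower against ECs, so the balance with ECs turned, as did the median against mesothelial cells (0.14). Fkbp5, a receptor cochaperone induced by glucocorticoids, was lower in TECs (54.9 to 118 CPM) than in FBs (102 to 232; -1.37, SE 0.25, adjusted p = 0.000781). Sgk1, a kinase induced by both corticosteroid receptors, was highest in ECs at 239 to 401 CPM and at most 83.8 CPM in other classes (TEC against EC, -3.06, SE 0.20, adjusted p = 1.01e-06). Per1, a clock gene with a glucocorticoid response, was at 63.5 to 80.0 CPM in mural cells, above TECs (TEC against mural, -1.47, SE 0.17, adjusted p = 4.62e-05), ECs and FBs, and was not called against mesothelial cells (0.51, SE 0.21, adjusted p = 0.0981). Tsc22d3, the glucocorticoid-induced leucine zipper, was called in none of the 10 contrasts (lowest adjusted p = 0.336). Mt1, a metallothionein, was lowest in ECs at 84.5 to 258 CPM, while Sult1a1, a sulfotransferase, was highest there at 124 to 263. Lcn2, an iron-carrier binding protein, was at 33.8 to 130 CPM in TECs. In mesothelial cells it was at 13.1 and 77.0 CPM in the Foxn1Lin female and wild type libraries, the latter above the 55.4 CPM of wild type TECs. Tat, a tyrosine-degrading enzyme of liver, was at 3.9 to 11.0 CPM in mesothelial cells and at most 1.0 elsewhere. Of 8 mineralocorticoid-related genes, TECs were higher in 5, 6, 6 and 4 and lower in 1, 1, 0 and 0 against ECs, FBs, mural and mesothelial cells (medians 2.46, 2.69, 1.83 and 0.97), beside the same shares of all genes called. They included Scnn1a, a subunit of the epithelial sodium channel, at 30.0 to 58.2 CPM in TECs and at most 3.8 in ECs, FBs and mural cells. Mesothelial cells had 26.8 and 11.0 CPM of Scnn1a in the Foxn1Lin female and wild type libraries. Scnn1b and Scnn1g, the other channel subunits, were at 6.8 to 9.5 and 5.9 to 9.6 CPM in TECs. Atp1b1, a subunit of the sodium pump, was at 209 to 326 CPM in TECs and 392 to 417 in mesothelial cells.

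**Figure D5:**
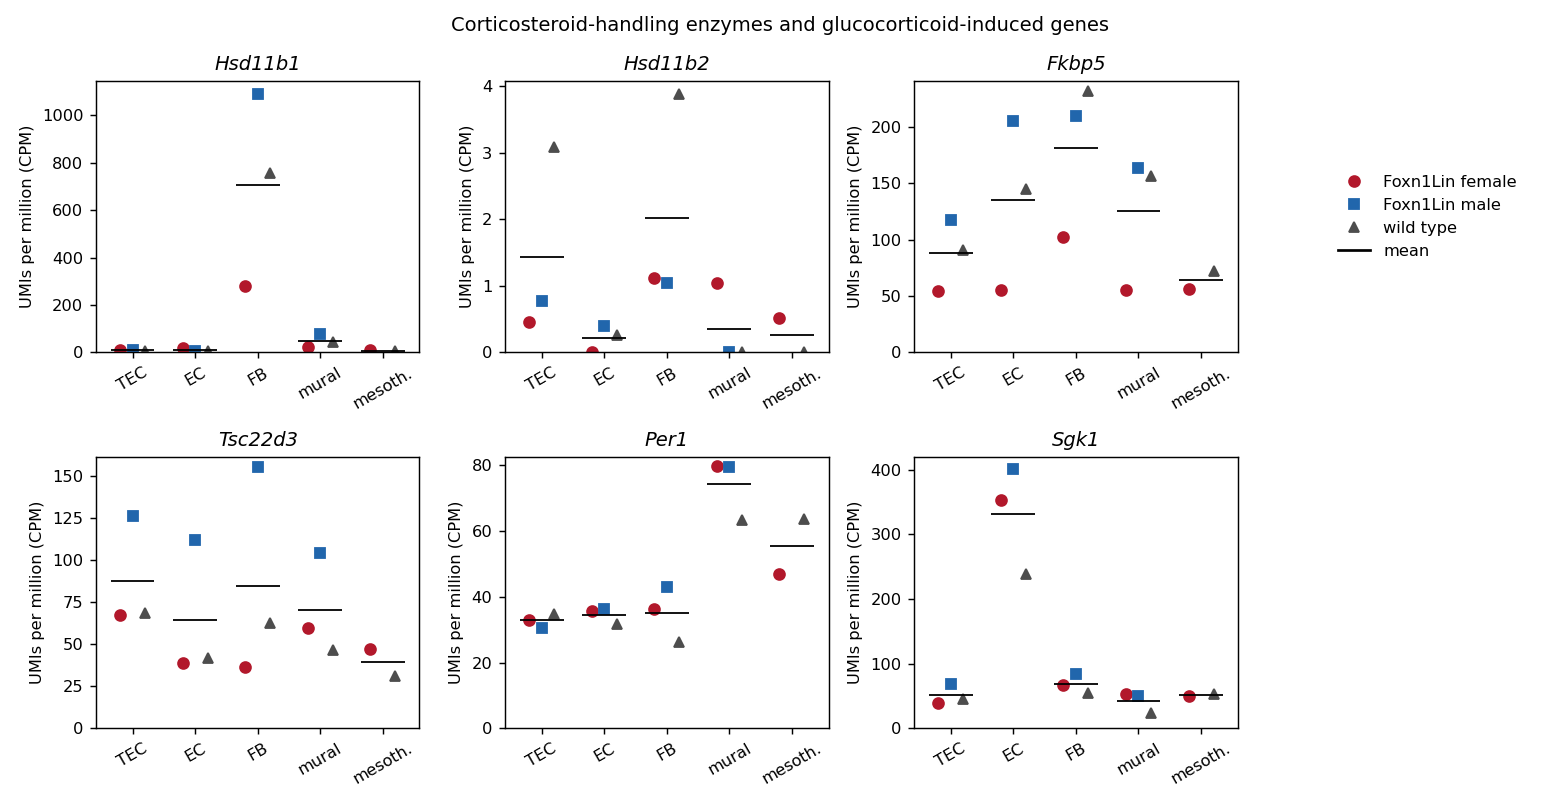
CPM (vertical axes) of the enzymes Hsd11b1 and Hsd11b2 and of the glucocorticoid-induced genes Fkbp5, Tsc22d3, Per1 and Sgk1 by class, with 1 point per library and a bar for the mean. Hsd11b1 stands highest in FBs at 279 to 1090 CPM and Sgk1 in ECs at 239 to 401 CPM. Per1 was at 63.5 to 80.0 CPM in mural cells.

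Of 12 estrogen-induced genes 11 were tested, Pgr among them. TECs were higher in 6 and lower in 3 against ECs, 5 and 4 against FBs, 7 and 1 against mural and 6 and 2 against mesothelial cells (medians 2.67, -0.13, 1.68 and 1.17), beside 56.3%, 55%, 48.7% and 37.8% of all genes called. Pgr, itself one of the receptors described here, is 1 of those higher in each. Without TMM the median against FBs was 0.20. Greb1, an estrogen-induced gene of breast cells, was not tested and reached at most 3.2 CPM. Tff1, a secreted trefoil peptide, was at 12.9 to 48.9 CPM in TECs and at most 1.3 elsewhere. Ltf, the iron-binding lactoferrin, was at 3.1 to 16.9 CPM in TECs, and Cxcl12, a chemokine, was highest in ECs at 666 to 1232 CPM. Of the 14 other receptors listed, 12 were tested, and TECs were higher in 6 and lower in 3 against ECs, 4 and 3 against FBs, 3 and 4 against mural and 3 and 1 against mesothelial cells (medians 0.37, -0.16, -0.21 and 0.43). Without TMM, 4 were higher and 2 lower against mural cells (median 0.11), and the median against FBs was 0.17, so both turned. Vdr, the vitamin D receptor, was at 45.2 to 69.1 CPM in TECs (TEC against EC, 4.10, SE 0.45, adjusted p = 2.45e-05). Esrrg, an orphan receptor related to the estrogen receptors, was at 112 to 271 CPM in TECs (4.86 against FBs, SE 0.78, adjusted p = 0.00036). Rarb, a retinoic acid receptor, was at 60.9 to 160 CPM in FBs, and Thrb, a thyroid hormone receptor, was lowest in ECs at 6.3 to 9.4 CPM.

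The 10 chaperones and 10 coregulators were tested in full, and their balance depended on the scaling. TECs were higher in 1 chaperone and lower in 4 against ECs, and without TMM higher in 3 and lower in 1. Against FBs, mural and mesothelial cells 0, 1 and 0 chaperones were higher and 2, 3 and 0 lower, and without TMM 3, 3 and 1 were higher and 1, 0 and 0 lower. Hsp90aa1, which holds steroid receptors ready for hormone, was at 355 to 581 CPM in ECs and 547 to 983 in the other classes. The cochaperone gene Dnaja1 was at 314 to 1004 CPM in ECs, and Fkbpl was at 1.6 to 3.8 CPM in FBs. Coregulators were lower in TECs in 5, 8 and 5 of 10 against ECs, FBs and mural cells and higher in 0, and without TMM 3, 1 and 1 were higher and 1, 3 and 1 lower. Against mesothelial cells 3 were higher in TECs and 0 lower (median 0.08), and without TMM 5 and 0. Nrip1, a corepressor recruited by nuclear receptors, was highest in FBs at 162 to 223 CPM (TEC against FB, -0.95, SE 0.16, adjusted p = 0.000574). The coactivators Ncoa1, Ncoa2 and Ncoa3 were at 62.2 to 81.4, 93.4 to 101 and 43.8 to 44.0 CPM in mesothelial cells and at 107 to 225, 161 to 210 and 69.6 to 95.4 in TECs.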

How the data were processed

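The authors mapped the droplet-based 3′ libraries with Cell Ranger 7.0.1 to mm10 (GRCm38) with reporter sequences added and deposited filtered and raw UMI counts per gene and barcode. Whether intronic reads were counted was not given in the sources used here. Per the labels, each group was 1 library. The receptors, lists and tests were chosen with earlier results of these data known, and 1 other receptor is not reported here.

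From the deposited counts, a barcode was removed where it had at most 1000 genes and also at least 20% mitochondrial UMIs. Barcodes that met only 1 of these conditions were kept. Of the called 8616, 3583 and 5478, 138, 149 and 222 were removed. Counts were summed per class and library (at least 10 cells) and fitted with edgeR 4.0.16 in R 4.3.3 (filterByExpr, TMM, library as block, glmQLFTest). Contrasts were 10 between classes and 16 between subsets. FB subsets had Pi16 or Smoc2 of at least 2 or Ptn of at least 5 UMIs, EC subsets Gja5 or Selp of at least 1, and mural subsets Myh11 of at least 2. Doublets were treated by dropping cells of more than 1 class, with Scrublet in scanpy 1.11.5 as an alternative. Cell-free RNA came from uncalled droplets within a factor of 2 of the fullest UMI bin. Shares used cells thinned to 2000 UMIs. Named genes besides the receptors were those called in the same direction in at least 3 of the 4 contrasts of a class, up to 4 per list, plus Fkbp5, Tsc22d3, Per1, Sgk1, Hsd11b1, Hsd11b2 and Greb1. Alternatives were DESeq2 1.42.0, no TMM, other filters and thresholds, no block and each library left out. All libraries carry the replicate number 1, so the block is the library itself, whose cells gave every class. Scripts were tested on simulated data.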

Additional observations from a re-analysis of the deposited data

Results flagged for a closer look

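Esr1 in FBs relative to mesothelial cells went opposite ways in the 2 libraries that held mesothelial cells. The log2 ratio of CPM was -0.90 in the Foxn1Lin female library (67.8 against 126 CPM) and 1.36 in the wild type library (79.3 against 30.8 CPM). Each group is 1 library, and the difference was not tested. The wild type value rests on 14 Esr1 UMIs in 36 mesothelial cells.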

How the results depend on the processing

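Of 40 receptor contrasts between classes 25 were called, 4 of them Pgr in TECs, and of 64 between subsets 11. Without the replicate block (the library as a term) these were 16 and 7, with 4 for Esr1 rather than 7 and 1 for Nr3c2 rather than 6. Leaving out each library gave 18 to 21 class calls and 5 to 12 subset calls, with 2 to 8 for Esr1, 3 to 5 for Pgr (5 with all), 5 to 7 for Nr3c1 (7 with all) and 3 to 5 for Nr3c2. Leaving out the Foxn1Lin male library gave the 2 for Esr1 and 7 subset calls, and leaving out the wild type library the 5 subset calls, the 3 for Pgr and the 3 for Nr3c2. Pgr also fell to 3 calls with looser class thresholds (1 UMI, or 3 for mural cells). Without mesothelial cells 4 of the 10 contrasts could not be run, which by itself leaves 3 for Pgr and 18 in all, the numbers called. The settings without mesothelial cells and without parathyroid barcodes were chosen after seeing the data. Other settings gave 20 class calls with looser thresholds and 23 to 26 otherwise (DESeq2 26, no TMM 23). One called contrast reversed, Esr1 in TECs against mesothelial cells without the Foxn1Lin female library, and leaving out each library gave -2.37 to 0.51 on the log2 scale. Of 445 repeats of a called contrast, 387 kept direction and call, and 57 kept direction only. In the CPM 148 of 150 repeats moved by less than the spread between libraries. Among shares 44 of 100 moved, 41 of them with no thinning or 1000 UMIs. The causes were not tested. Depth limits Esr2, at 0 to 7 UMIs per class and library, and mesothelial cells of the wild type library.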
